A study of Mus musculus with 32 samples.

Results

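The comparison is between 2 stimuli given to the same kind of cell, cultured mouse cardiac fibroblasts that had received the LacZ control vector: 4 libraries from cells treated with interleukin-1 beta (IL-1b, 15 ng/ml) against 4 from cells given bFGF, the basic fibroblast growth factor, at 20 ng/ml, each for 24 h. The 8 libraries were taken by the group named in their titles, from 32 in all, and same-numbered libraries of both groups formed pairs. Every group has the C57BL/6J_Pkm2fl/fl genotype, so the LacZ cells carry the floxed Pkm2 allele as well. The cells were used at passage 1, after growth in a serum medium that itself held 20 ng/ml human bFGF, and both stimuli were given in serum-starved medium. The 4 LacZ libraries titled SS had no stimulus named in their titles and serve as the background. The 8 iCre libraries with the same 2 stimuli had iCre in place of LacZ.

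Titles were followed since, for all 16 LacZ libraries, the tag for treatment does not match the title: the libraries titled IL-1b are tagged as LacZ controls and those titled bFGF as iCre with TNFa. The protocol text speaks of TAK1fl/fl mice. Map3k7, the gene of TAK1, was read at 109 to 138 CPM (counts scaled to a common library size) in the IL-1b libraries and at 120 to 141 CPM in the bFGF libraries. It did not pass the test (log2 fold change -0.11, SE 0.13, adjusted p = 0.678 in edgeR). Whether libraries of 1 group came from separate animals is not stated, so the p-values measure the spread between these libraries, which may be partly technical.

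Interleukin-1 beta is an inflammatory cytokine. Its receptor, through MyD88, IRAK kinases and TAK1, frees the transcription factor NF-kB from its inhibitors, and NF-kB turns on chemokines, cytokines and acute phase genes together with the inhibitors that switch it off again. Basic fibroblast growth factor binds receptor tyrosine kinases, works chiefly through the Ras-ERK cascade, and drives fibroblasts to divide. ERK in turn induces Sprouty, Spred and Dusp proteins, which restrain the cascade.

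Total counts ran from 22844993 to 29133901 in the IL-1b libraries, from 23716949 to 27273548 in the bFGF libraries and from 20736203 to 25205514 in the SS libraries. The 24 genes used as labels of resting fibroblasts summed to 17027 to 28677 CPM with IL-1b and to 17842 to 30677 CPM with bFGF. Col1a1, a fibrillar collagen chain, made up part of these sums. It stood at 7434 to 14346 CPM with IL-1b and at 4302 to 11047 CPM with bFGF. Of the marker genes of other cells that a cardiac culture can hold, 0 were called higher with IL-1b. With the library number as a block, 4 of the 14 tested leukocyte markers were called higher, as were 2237 of all 16760 genes. The summed leukocyte markers (14 of 16 tested, Cd3e at 0 counts) ran from 121 to 802 CPM with IL-1b and from 77.0 to 628 CPM with bFGF, higher with IL-1b in each of the 4 pairs, highest in library 3 and lowest in library 4 of both groups. Their part in the results on chemokine, complement and interferon genes was not tested. Endothelial markers summed to 17.0 to 20.1 and 18.3 to 39.6 CPM. Library 4 of both groups stood apart on the second component of the 8 libraries, which held 31.2% of their variance. There bFGF library 4 lay at -90.34 and IL-1b library 4 at -41.77, with the other libraries between -7.82 and 42.38. On the first component of the 8 libraries, which held 43.9% of their variance, bFGF library 4 lay at -8.53, the other 3 bFGF libraries between -62.00 and -55.6, and the IL-1b libraries between 24.4 and 69.6.

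The 2 stimuli left the fibroblasts in widely different states. Of 16760 genes tested, 2483 (14.8%) passed an adjusted p of 0.05 in edgeR's quasi-likelihood test. With IL-1b, 1325 genes (7.91%) were higher and 1158 (6.91%) were lower. The IL-1b side held more of the large differences: 19 called genes were at least 64-fold higher with IL-1b and 0 with bFGF, and at 16-fold the counts were 70 and 16. Genes called higher with IL-1b took 16.1% to 17.8% of all counts in the IL-1b libraries. They took 7.81% to 9.45% in the bFGF libraries and 7.86% to 9.61% in the SS libraries. They were picked by their values in the IL-1b and bFGF libraries, so a larger share with IL-1b follows from that choice. With the library number as a block, 2237 genes were higher and 2116 lower, and all 2483 were among them. Without the number 4 libraries of every group the counts were 2015 and 1929, and without IL-1b library 1 the lower count was 756. Scaled by total counts only, 955 genes were higher and 1456 lower, so the share of called genes that were higher with IL-1b went from 53.4% to 39.6%. That scaling moved the median of all genes from -0.009 to -0.082 on the log2 scale.

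**Figure D1:**
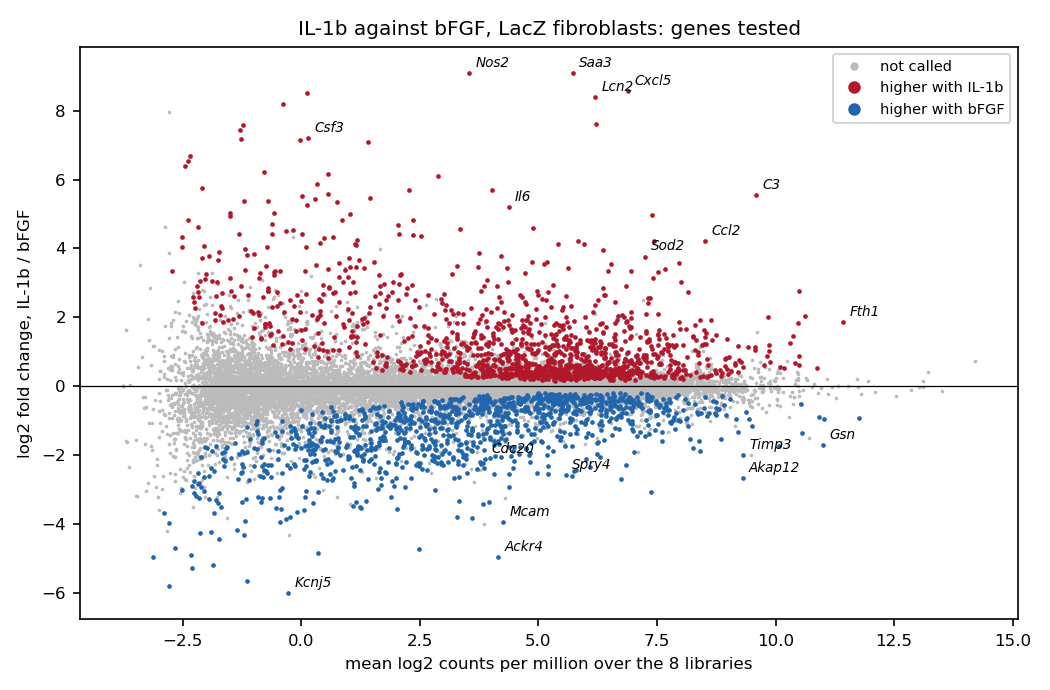
Log2 fold change of IL-1b over bFGF (vertical) against the mean log2 CPM over the 8 LacZ libraries (horizontal), with each tested gene as a point and called genes in colour. Red points reach above 8 on the log2 scale, at Nos2, Saa3, Cxcl5 and Lcn2, whereas among the labelled genes the lowest blue point is Kcnj5 at -6.0.

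Of the genes of the IL-1 pathway, Irak3, Map3k8 and Il1r2 differed more than the signalling receptor Il1r1. In the list of IL-1 receptors, adaptors and brakes, 6 of 18 tested members were higher with IL-1b and 0 lower, with a median of 0.19 against -0.009 over all genes. Irak3, an inactive kinase that damps the pathway, read 57.7, 64.9, 28.7 and 45.5 CPM in IL-1b libraries 1 to 4 and 17.2, 17.6, 18.5 and 17.4 CPM in bFGF libraries 1 to 4. All IL-1b libraries were above all bFGF libraries, with library 3 the lowest (log2 fold change 1.48, SE 0.24, adjusted p = 7.94e-05). Map3k8, a kinase that links NF-kB signalling to ERK, read 26.6, 30.5, 26.7 and 21.8 CPM with IL-1b against 4.93, 4.79, 6.10 and 5.99 CPM with bFGF (2.27, SE 0.18, adjusted p = 1.05e-09). The decoy receptor Il1r2 was low and higher with IL-1b, at 1.02 to 2.26 CPM against 0.262 to 0.542 CPM (adjusted p = 0.00661). The signalling receptor Il1r1 read 303, 298, 225 and 270 CPM with IL-1b, 225, 265, 203 and 201 CPM with bFGF, and 149, 142, 129 and 105 CPM in SS. The stimulated groups overlapped and the difference was not called (0.29, SE 0.16, adjusted p = 0.279; 0.0232 with the library number as a block). Against SS, Il1r1 was higher with each stimulus, by 1.06 with IL-1b (adjusted p = 4.36e-05) and by 0.77 with bFGF (adjusted p = 0.0137).

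Nearly the whole of the NF-kB list was higher with IL-1b: 15 of 16 tested members, with a median log2 fold change of 1.70. Zc3h12a, a ribonuclease that degrades cytokine messages, read 212, 194, 167 and 149 CPM with IL-1b, 11.6, 10.4, 12.4 and 6.79 CPM with bFGF, and 8.66 to 10.6 CPM in SS. The bFGF and SS libraries lay at one level, and all IL-1b libraries were more than 10-fold above it (4.13, SE 0.23, adjusted p = 7.49e-13). Nfkbia, which holds NF-kB in the cytoplasm, read 193, 204, 143 and 186 CPM against 34.7, 33.5, 31.6 and 28.6 CPM (2.5, SE 0.15, adjusted p = 2.41e-12). Tnip1 (2.0), Birc3 (1.84) and the subunit Relb (1.78) followed, each without overlap. The exception was Traf1, at 0.323 to 2.10 CPM with IL-1b and 0.834 to 3.94 CPM with bFGF (adjusted p = 0.717).

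The 250 bases before the start of 3 IL-1b-side genes are shown because they hold the core of an NF-kB site, written here as GGGA and TTCC with any 2 bases between, searched on both strands. Capitals mark the matches. They are RefSeq promoters on GRCm38.p6: Cxcl1 at chr5:90890995-90891244 (plus strand), Il6 at chr5:30012864-30013113 (plus strand) and Nfkbia at chr12:55492648-55492897 (minus strand).

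Cxcl1: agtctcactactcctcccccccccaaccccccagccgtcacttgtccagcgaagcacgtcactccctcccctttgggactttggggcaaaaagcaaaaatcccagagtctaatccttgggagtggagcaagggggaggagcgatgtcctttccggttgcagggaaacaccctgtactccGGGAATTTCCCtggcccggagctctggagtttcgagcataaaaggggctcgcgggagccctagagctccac
Il6: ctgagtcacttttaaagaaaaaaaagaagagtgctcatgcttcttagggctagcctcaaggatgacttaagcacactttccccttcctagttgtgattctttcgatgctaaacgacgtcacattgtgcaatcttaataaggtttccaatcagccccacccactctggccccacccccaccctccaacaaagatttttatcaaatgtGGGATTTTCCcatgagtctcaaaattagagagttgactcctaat
Nfkbia: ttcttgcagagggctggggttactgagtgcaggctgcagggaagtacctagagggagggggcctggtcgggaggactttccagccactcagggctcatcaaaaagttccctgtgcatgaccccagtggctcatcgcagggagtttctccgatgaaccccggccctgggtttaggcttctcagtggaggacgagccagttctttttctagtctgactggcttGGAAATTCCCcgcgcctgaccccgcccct

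In the Cxcl1 window a forward and a reverse match overlap, with first bases 71 and 70 bases before the start. The match lay 44 bases before the start in Il6 and 29 in Nfkbia. Over 300-base windows (these 250 bases and 50 after the start) the motif was present in 482 of 32851 promoters (1.47%) and in 1.47% of those of tested genes. It was present in 2.80% of the 1284 windows of genes called higher with IL-1b and in 0.948% of the 1160 windows of genes called higher with bFGF. By list, 4 of 8 CXC chemokine windows and 4 of 16 NF-kB list windows held it. It was in 0 of 12 acute phase, 0 of 12 nitric oxide and prostaglandin, 0 of 10 complement and 0 of 8 CC and CX3C chemokine windows, all lists with more genes higher with IL-1b than lower. These are matches of letters, not measured sites.

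Chemokines of both families were among the largest differences. In 11.1% of all genes each IL-1b library was above each bFGF library, and in 9.2% below. Of 9 tested CXC chemokines 7 were higher with IL-1b and 0 lower (median 4.42), and of 13 CC and CX3C chemokines 6 were higher and 0 lower (median 2.10; 11 higher with the block). Cxcl5, a neutrophil attractant (chr5:90759360-90761624, plus strand), read 2691, 2508, 1781 and 2394 CPM with IL-1b against 6.32, 4.67, 5.39 and 8.36 CPM with bFGF. In SS it read 33.1, 34.1, 9.35 and 21.5 CPM, so the bFGF libraries were the lowest of the 3 groups. The difference between stimuli was 378-fold (log2 8.56, SE 0.48, adjusted p = 7.91e-13), and bFGF was below SS by itself (-1.98, adjusted p = 0.00511). Cxcl1, another neutrophil attractant (chr5:90891241-90893115), read 1288, 1201, 1266 and 565 CPM against 6.48, 7.12, 5.35 and 3.14 CPM. Library 4 was the lowest in both groups, and the log2 difference was 7.61 (SE 0.53, adjusted p = 5.91e-11). Cxcl2 (5.52) and the scavenger-type chemokine Cxcl16 (2.56) were higher too. Cxcl1 and Cxcl2 are related genes, and any reads shared between them cannot be assigned by these counts.

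Ccl2, the main monocyte attractant, read 1916, 1689, 1764 and 1146 CPM with IL-1b, 103, 82.3, 112 and 53.2 CPM with bFGF, and 14.8, 13.8, 41.5 and 15.7 CPM in SS. The 3 groups stood in that order without overlap. IL-1b was 18.6-fold above bFGF (4.22, SE 0.46, adjusted p = 3.04e-07), and bFGF was above SS by 2.03 (adjusted p = 0.0107). Its neighbour Ccl7 kept the same order, with mean levels of 755 ± 102 and 40.6 ± 8.57 CPM (SD, n = 4) and the same 18.6-fold difference (adjusted p = 2.41e-12). Ccl5, which attracts T cells, read 55.5 to 70.4 CPM against 0.397 to 1.63 CPM (6.11, adjusted p = 2.44e-10). Ccl8 was called at 14.8 to 63.6 against 0.542 to 4.64 CPM (4.37, adjusted p = 0.0015). Cx3cl1 read 127 to 382 CPM with IL-1b and 239 to 322 CPM with bFGF and was not called (adjusted p = 0.765). Cxcl12, which keeps leukocyte precursors in place, read 1557, 2220, 573 and 2423 CPM against 225, 450, 216 and 1384 CPM. It was higher with IL-1b in each of the 4 pairs while the groups overlapped (1.57, adjusted p = 0.336; 0.00044 with the block). Per kilobase of exon, the mean levels in the IL-1b libraries were in the order Ccl2 (1431 CPM per kb), Cxcl5 (1258), Ccl7 (943), Cxcl1 (576), Cxcl16 (129), Ccl5 (65.6) and Cxcl2 (2.98).

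Among cytokines and colony-stimulating factors, 7 of 15 tested members were higher with IL-1b and 0 lower (median 0.90). Il6 read 134, 113, 140 and 116 CPM with IL-1b against 3.97, 2.75, 4.19 and 2.69 CPM with bFGF, a 37.0-fold difference (5.21, SE 0.60, adjusted p = 7.11e-07). The SS libraries lay at 1.72 to 4.69 CPM, the range of the bFGF libraries. Csf3, which drives neutrophil production, read 9.17, 8.25, 6.61 and 16.4 CPM against 0 to 0.128 CPM (7.19, SE 0.74, adjusted p = 1.09e-07). Lif, a relative of Il6, read 42.6 to 73.3 against 11.2 to 19.5 CPM (1.94, adjusted p = 0.00212). The macrophage factor Csf1 was abundant in both groups, at 2574, 2008, 2915 and 1620 CPM and 999, 789, 1093 and 446 CPM (1.45, SE 0.39, adjusted p = 0.0109).

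**Figure D2:**
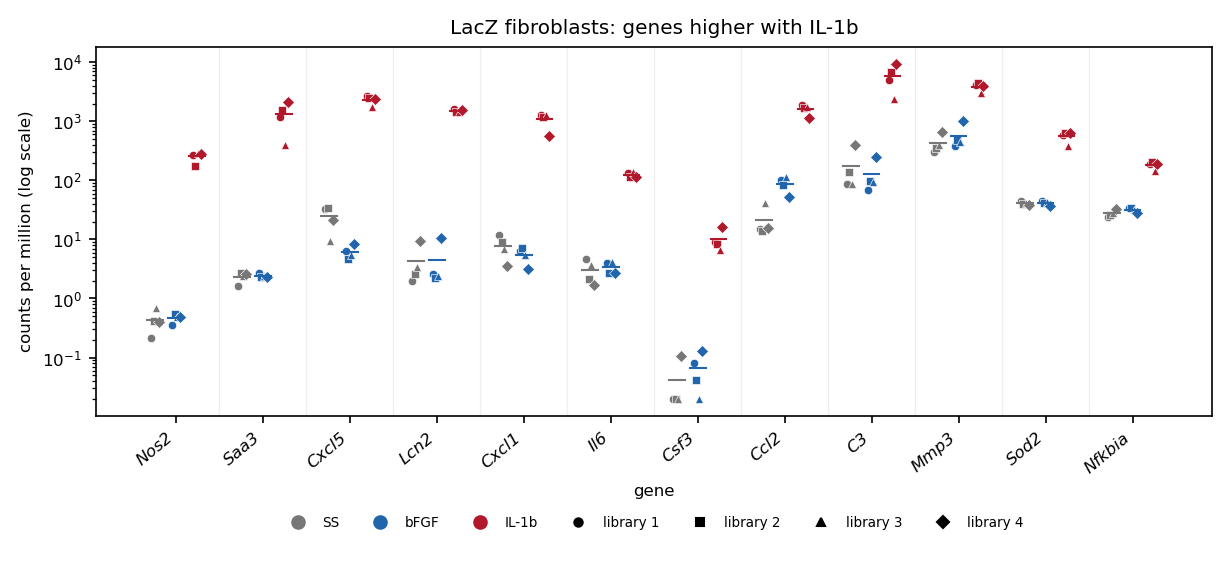
CPM on a log axis of 12 genes of the IL-1b side in each of the 4 LacZ libraries of SS (grey), bFGF (blue) and IL-1b (red); bars are means, marker shapes are library numbers, and values under 0.02 are drawn at 0.02. In each of these genes the 4 red points lie above the 4 blue points, while blue and grey lie close together except for Cxcl5 and Ccl2.

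The gene with the smallest adjusted p among those named was Nos2, the inducible nitric oxide synthase (chr11:78920787-78960254, plus strand). It read 274, 174, 296 and 283 CPM with IL-1b against 0.358, 0.542, 0.486 and 0.480 CPM with bFGF and 0.217 to 0.700 CPM in SS. The levels with bFGF and in SS shared one range, and with IL-1b the mean was 545-fold higher (9.09, SE 0.28, adjusted p = 1.49e-18). Genes that supply this enzyme were higher too: the arginine transporter Slc7a2 read 819 to 883 against 64.7 to 84.1 CPM (3.57, adjusted p = 5.32e-12), and Gch1, which makes its cofactor, read 17.3 to 19.8 against 2.70 to 5.16 CPM (2.41, adjusted p = 0.000117). Slc7a2 was also lower with bFGF than in SS (-1.07, adjusted p = 0.0059). In the list of nitric oxide and prostaglandin synthesis 4 of 12 were higher and 1 lower (8 and 1 with the block). Ptges2, a prostaglandin E synthase, was the other one higher (2.05, SE 0.09, adjusted p = 7.74e-15), and the receptor Ptger4 was the lower one (-1.16, adjusted p = 0.0262). Ptger4 lost its call without bFGF library 2 or IL-1b library 2 or 4, at adjusted p from 0.0552 to 0.0836.

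Acute phase and antimicrobial genes had the highest median of the lists, 5.65, with 11 of 12 tested members higher. Saa3, a serum amyloid A protein made outside the liver (chr7:46711998-46715700, minus strand), read 1190, 1542, 400 and 2152 CPM with IL-1b against 2.70, 2.29, 2.36 and 2.34 CPM with bFGF. The bFGF libraries hardly differed among themselves, whereas IL-1b library 3 was well below the other 3 (9.09, SE 0.49, adjusted p = 3.44e-13). Lcn2, an iron-sequestering antibacterial protein (chr2:32384633-32388252, minus strand), read 1604, 1448, 1456 and 1542 CPM against 2.62, 2.21, 2.36 and 10.5 CPM (8.40, SE 0.72, adjusted p = 3.52e-09). Here bFGF library 4 was the high one, as SS library 4 was at 9.59 CPM against 1.95 to 3.38 CPM in the other SS libraries. Steap4 (4.96), a metalloreductase, the antimicrobial peptide gene Camp (5.86), Chil1 (5.59) and the protease inhibitor Serpina3n (1.85) were higher too. Saa and Serpina3 genes have near-identical relatives, so their split between copies is uncertain.

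Of 15 tested complement genes 7 were higher and 0 lower (median 1.03). C3, the central component, read 4932, 6856, 2404 and 9456 CPM with IL-1b against 68.5, 97.5, 93.6 and 248 CPM with bFGF. Library 4 was the highest of each group and IL-1b library 3 the lowest of its own, with a difference of 46.6-fold (5.54, SE 0.72, adjusted p = 4.38e-06). C3 had the largest gain in mean CPM of the called genes. Cfb read 9.04 to 65.6 against 0.358 to 1.28 CPM (5.69, adjusted p = 4.51e-05), and C2 read 5.45 to 21.9 against 1.94 to 2.54 CPM. A predicted readthrough gene covers 79.5% of the Cfb exons and 42.8% of the C2 exons, so reads there cannot be assigned with certainty. Among adhesion genes 6 of 9 were higher and 1 lower. Icam1, which binds leukocyte integrins, read 326, 417, 251 and 331 CPM against 93.6, 146, 95.1 and 96.4 CPM (1.62, SE 0.23, adjusted p = 1.27e-05). Selp, a selectin better known from endothelium and platelets, read 155 to 420 against 20.3 to 34.0 CPM (3.55, adjusted p = 0.00019). The exception Alcam read 25.9, 19.9, 48.7 and 33.1 CPM with IL-1b and 127, 119, 119 and 187 CPM with bFGF (-2.11, SE 0.40, adjusted p = 0.000567).

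Interferon-stimulated genes and antigen presentation differed almost as whole lists. Of 28 tested interferon-stimulated genes 24 were higher with IL-1b and 0 lower (median 1.60). In bFGF against SS 0 of the 28 were called in either direction, which is near the 2.56% of all genes called there. Gbp2, a guanylate-binding protein, read 371, 509, 257 and 522 CPM against 37.1, 48.7, 20.5 and 55.6 CPM (3.36, SE 0.44, adjusted p = 4.53e-06). Gbp5 (3.77) and the transcription factors Irf7 (2.43) and Irf1 (1.49) were higher without overlap. All 16 tested genes of MHC class I presentation were higher (median 1.59), and all 16 were called under each of the 17 alternative settings. H2-K1, a classical class I heavy chain, read 819, 1085, 560 and 520 CPM against 94.4, 96.3, 84.0 and 92.9 CPM (3.02, SE 0.27, adjusted p = 9.16e-09). H2-Q4 read 186 to 404 against 7.48 to 23.8 CPM (4.12, adjusted p = 2.57e-08), with the caution that class I genes share sequence. The peptide transporter Tap2 (1.24), the loading factor Tapbp (1.92) and the trimming peptidase Erap1 (1.44) differed by less.

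Proteases and their inhibitors were split. Of 24 tested metalloproteinases and inhibitors 5 were higher with IL-1b and 1 lower (median 0.20). Mmp3, stromelysin 1, read 4077, 4408, 3045 and 3986 CPM with IL-1b against 383, 477, 446 and 996 CPM with bFGF (2.75, SE 0.31, adjusted p = 4.97e-07). Mmp13, a collagenase, read 3.27 to 13.2 against 0.715 to 2.21 CPM (2.63, adjusted p = 0.000848), and Mmp8 read 2.15 to 9.78 against 0.15 to 1.06 CPM (3.57, adjusted p = 0.00761). The inhibitors went opposite ways. Timp1 read 1766, 1346, 3007 and 1534 CPM against 522, 377, 637 and 358 CPM (2.01, SE 0.45, adjusted p = 0.00244). Timp3 read 403, 476, 279 and 234 CPM against 1575, 1749, 1863 and 407 CPM (-2.01, SE 0.50, adjusted p = 0.00661), and bFGF library 4 lay within the range of the IL-1b libraries. In SS, Timp3 read 1258 to 2973 CPM, a range that overlapped the bFGF libraries. Mmp12, a macrophage elastase, was the remaining gene of the 5 (2.96, adjusted p = 0.0178), and lost its call without bFGF library 2 or 4 or IL-1b library 3 (adjusted p from 0.0508 to 0.0693). Mmp2 and Timp2, both abundant, were not called (adjusted p = 0.938 and 0.256). Of the plasminogen genes, the inhibitor Serpinb2 was higher with IL-1b (3.47, adjusted p = 0.000258), and the activators Plat (-0.83, adjusted p = 0.00977) and Plau (-2.36, adjusted p = 0.00921) were lower.

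On the bFGF side, the inhibitors that ERK induces against itself formed the clearest signalling group. Of 15 tested members 8 were higher with bFGF and 0 with IL-1b, with a median of -0.78. Spry4 read 128, 135, 113 and 92.7 CPM with bFGF, 20.6, 20.6, 22.1 and 15.6 CPM with IL-1b, and 8.03, 7.72, 28.3 and 14.9 CPM in SS. The bFGF libraries stood alone, 5.93-fold above IL-1b (-2.57, SE 0.39, adjusted p = 4.04e-05) and above SS by 2.99 (adjusted p = 0.000242), while IL-1b against SS was not called (0.42, adjusted p = 0.489). Spred1 had the same shape at 191 to 266 CPM with bFGF, 101 to 118 CPM with IL-1b and 86.5 to 142 CPM in SS (-1.13, SE 0.17, adjusted p = 2.72e-05). So had Spry2, at 143 to 188, 68.4 to 101 and 68.2 to 93.6 CPM (-0.97, adjusted p = 0.000258). Dusp5, a nuclear ERK phosphatase, read 12.4, 13.5, 11.3 and 5.32 CPM with bFGF against 1.42, 1.38, 1.44 and 1.47 CPM with IL-1b (-2.89, SE 0.52, adjusted p = 0.000322). Spry1 differed in its reference: it read 104 to 184 CPM with bFGF, 69.6 to 176 CPM in SS and 22.6 to 53.6 CPM with IL-1b. It was lower with IL-1b than in SS (-1.87, adjusted p = 0.00458), whereas bFGF against SS was not called (0.11, adjusted p = 0.947). Without each of bFGF library 1 and IL-1b libraries 1, 2 and 4, the count of the list was 6.

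Transcription factors that growth factors induce were divided, with 3 of 21 higher with IL-1b and 3 with bFGF. Etv4, an ETS factor downstream of FGF signalling, read 47.7, 49.6, 37.0 and 37.3 CPM with bFGF, 6.6, 4.06, 14.2 and 4.41 CPM with IL-1b and 2.11 to 17.8 CPM in SS (-2.55, SE 0.69, adjusted p = 0.012). Its relative Etv5 was at the threshold (-1.42, adjusted p = 0.0499) and lost its call when any 1 of the 8 libraries was left out, at adjusted p from 0.0538 to 0.126. The last of the 3 was Etv1 (-1.48, adjusted p = 0.0436), which lost its call without any of bFGF libraries 1 to 3 or IL-1b libraries 1, 2 and 4 (adjusted p from 0.0795 to 0.135). The count with bFGF was then 1 without each of bFGF libraries 1 to 3 and IL-1b libraries 1 and 2. Junb (1.18, adjusted p = 5.21e-05), Fosl2 (1.38, adjusted p = 0.000476) and Ier3 (2.95, adjusted p = 3.2e-07) were higher with IL-1b. Myc read 23.1 to 33.3 CPM with IL-1b and 16.8 to 22.6 CPM with bFGF and was not called (0.52, adjusted p = 0.222; 0.00857 without the number 4 libraries). Among FGF ligands, receptors and coreceptors 3 of 20 were higher with IL-1b and 3 with bFGF. Fgf1 read 9 to 11 CPM with bFGF against 1.47 to 3.06 CPM with IL-1b (-2.19, SE 0.46, adjusted p = 0.00132), and the receptor-like Fgfrl1 read 59.5 to 109 against 41.2 to 47.1 CPM (-1.05, adjusted p = 0.00472). Fgf18 was called too (-1.47, adjusted p = 0.0378), but not without any of bFGF libraries 1 to 3 or IL-1b libraries 1 to 4 (adjusted p from 0.0501 to 0.121). Fgf9 (2.75, adjusted p = 0.00668) and the heparan sulfate coreceptors Sdc1 (0.98) and Sdc4 (1.21) were higher with IL-1b. Fgf2 itself (adjusted p = 0.754) and Fgfr1 (adjusted p = 0.149) were not called.

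**Figure D3:**
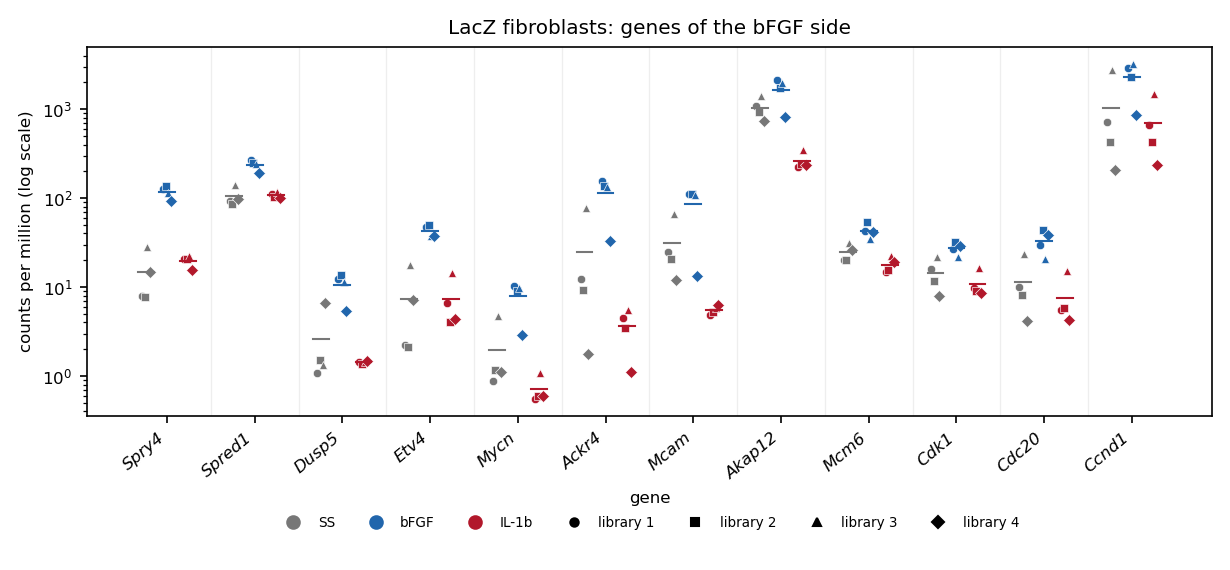
CPM on a log axis of 12 genes of the bFGF side in each of the 4 LacZ libraries of SS (grey), bFGF (blue) and IL-1b (red); bars are means and marker shapes are library numbers. Blue points lie above red points except in Ccnd1, where bFGF library 4 at 867 CPM is below IL-1b library 3 at 1487 CPM, and bFGF library 4 is the lowest blue point for Ackr4, Mcam, Mycn and Akap12.

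Genes of cell division were higher with bFGF as nearly complete lists. Of 28 tested mitosis genes 26 were called (median -2.0), and of 30 tested genes of DNA replication and S phase 24 were called (median -1.23), with 0 higher with IL-1b in either list. Mcm6, a subunit of the replicative helicase, read 42.9, 53.8, 34.8 and 41.2 CPM with bFGF against 14.7, 15.4, 22.5 and 18.9 CPM with IL-1b (-1.27, SE 0.20, adjusted p = 5.97e-05). The other named genes of the replication list were Mcm4 (-1.16), Mcm7 (-0.72) and the polymerase subunit Pola1 (-1.67). Cdk1, the kinase that starts mitosis, read 26.5, 31.9, 21.9 and 28.7 CPM with bFGF, 9.77, 8.99, 16.4 and 8.46 CPM with IL-1b, and 15.8, 11.6, 21.6 and 7.94 CPM in SS (-1.32, SE 0.26, adjusted p = 0.000879). Cdc20, which starts the exit from mitosis, read 29.6, 43.4, 20.6 and 38.2 CPM against 5.50, 5.76, 15.0 and 4.23 CPM (-2.11, SE 0.48, adjusted p = 0.00332). In both genes library 3 was the lowest of the bFGF group and the highest of the IL-1b group, and the groups did not overlap. Cenpa, the centromere histone (-2.20, adjusted p = 0.00535), and the spindle checkpoint kinase Bub1b (-1.54, adjusted p = 0.00332) were called as well.

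The counts of these lists moved with the library left out. The mitosis count fell to 10 without IL-1b library 2 and without IL-1b library 4, to 11 without IL-1b library 1 and to 15 without bFGF library 2, and it was 16 without the number 4 libraries and 28 without IL-1b library 3. The median stayed between -2.79 and -1.62 in these fits. The replication count was 15 without IL-1b library 2 and 16 without IL-1b library 1 or bFGF library 2. Each stimulus was also set against the same SS libraries. Of all genes, 1.64% were called higher and 0.919% lower in bFGF against SS (2.56% together), and 11.1% higher and 8.13% lower in IL-1b against SS (19.2% together). In bFGF against SS 2 mitosis genes and 12 replication genes were higher (28 and 24 with the library number as a block), with medians of 1.5 and 0.94. In IL-1b against SS 0 mitosis genes were called and 3 replication genes were lower, with medians of -0.52 and -0.11. Ccnd1, the cyclin that growth factors induce in G1, read 2896, 2290, 3237 and 867 CPM with bFGF, 669, 423, 1487 and 233 CPM with IL-1b, and 725, 432, 2725 and 207 CPM in SS. It was higher with bFGF in each of the 4 pairs, but its level varied so much between library numbers that it was not called (-1.72, SE 0.86, adjusted p = 0.207; 3.13e-05 with the block). Ccnd3 read 176 to 267 against 126 to 140 CPM (-0.82, adjusted p = 2.3e-05). The inhibitor Cdkn1a read 464 to 528 and 441 to 511 CPM and was not called (adjusted p = 0.878).

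Promoters of 3 of these mitosis genes are shown with 2 short sequences in capitals, CCAAT (its reverse complement is ATTGG) and TTTGAA, both searched on both strands. Cdk1 and Cdc20 hold both, and Cenpa holds CCAAT alone. They are the 250 bases before the RefSeq start on GRCm38.p6, at chr10:69352913-69353162 (minus strand) for Cdk1, chr4:118437344-118437593 (minus strand) for Cdc20 and chr5:30666636-30666885 (plus strand) for Cenpa.

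Cdk1: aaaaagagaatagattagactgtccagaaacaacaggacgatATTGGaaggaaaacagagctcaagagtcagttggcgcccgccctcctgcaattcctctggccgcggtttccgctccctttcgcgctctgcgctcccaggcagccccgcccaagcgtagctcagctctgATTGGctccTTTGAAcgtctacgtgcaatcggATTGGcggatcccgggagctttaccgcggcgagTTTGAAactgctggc
Cdc20: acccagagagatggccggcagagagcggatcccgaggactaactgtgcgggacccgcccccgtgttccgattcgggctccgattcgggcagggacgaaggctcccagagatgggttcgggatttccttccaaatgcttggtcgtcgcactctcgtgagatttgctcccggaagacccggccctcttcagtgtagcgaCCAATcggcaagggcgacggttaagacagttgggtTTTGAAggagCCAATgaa
Cenpa: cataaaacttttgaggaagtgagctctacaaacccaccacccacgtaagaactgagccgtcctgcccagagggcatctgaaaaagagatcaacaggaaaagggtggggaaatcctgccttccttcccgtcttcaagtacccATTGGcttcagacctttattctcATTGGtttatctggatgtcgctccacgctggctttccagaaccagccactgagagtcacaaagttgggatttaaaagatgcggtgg

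The Cdk1 stretch holds 3 CCAAT and 2 TTTGAA matches, that of Cdc20 holds 2 and 1, and that of Cenpa holds 2 CCAAT matches, 109 and 86 bases before the start. Over the 300-base windows CCAAT was present in 21 of 24 windows of the mitosis list (87.5%), in 19 of 28 of the replication list (67.9%) and in 37.2% of windows of tested genes (37.4% of all promoters). The share was also high in lists not called higher with bFGF: 78.9% in the cholesterol list, 71.4% in the TCA cycle list, 63.6% in the serine and ATF4 list and 62.5% in the MHC class I list. TTTGAA was present in 17 of 24 mitosis windows (70.8%), in 5 of 28 replication windows (17.9%), and in 12.2% of windows of tested genes (17.9% of all promoters). Among windows of all genes called higher with bFGF the shares were 41.4% and 15.4%.

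The genes with the largest differences on the bFGF side lay outside these groups. Kcnj5, a potassium channel subunit, read 3.77, 7.75, 1.68 and 8.04 CPM with bFGF and 0.0352 to 0.119 CPM with IL-1b (-6.0, SE 0.72, adjusted p = 1.24e-06). Ackr4, a scavenging receptor for homing chemokines, read 155, 135, 134 and 33.1 CPM with bFGF, 4.43, 3.50, 5.59 and 1.10 CPM with IL-1b, and 12.2, 9.17, 76.5 and 1.76 CPM in SS (-4.96, SE 1.02, adjusted p = 0.00127). Library 4 was the lowest in all 3 groups. Heyl, a Notch target, read 22.4 to 41.9 CPM with bFGF, 0.751 to 1.25 CPM with IL-1b and 3.30 to 27.1 CPM in SS (-4.71, SE 0.75, adjusted p = 6.44e-05), and IL-1b was below SS (-4.17, adjusted p = 0.000182) while bFGF against SS was not called (adjusted p = 0.746). Art4 had the same pattern, lower with IL-1b than with bFGF (-3.43) and than in SS (-3.09, adjusted p = 1.66e-05). By contrast Gpr182 read 1.73 to 5.91 CPM with bFGF, 0 to 1.02 CPM with IL-1b and 0.140 to 0.824 CPM in SS: bFGF was above both (-3.39, adjusted p = 0.00334, and 3.62 against SS, adjusted p = 0.0156).

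In several of these genes bFGF library 4 was far from its group. Mcam, an adhesion molecule of mural and endothelial cells, read 112, 112, 107 and 13.4 CPM with bFGF and 4.90, 5.30, 5.87 and 6.25 CPM with IL-1b (-3.95, SE 0.74, adjusted p = 0.000454). Map2 read 76.5, 74.3, 75.4 and 10.1 CPM against 2.28 to 8.51 CPM (-3.35, adjusted p = 0.0067), and Colec11 read 45.0, 48.2, 47.9 and 8.23 CPM against 1.18 to 6.08 CPM (-3.33, adjusted p = 0.00631). In each, library 4 was still above all IL-1b libraries and far below the other 3 bFGF libraries. Mycn, a Myc relative (-3.49), Brinp2 (-4.83), Plekha6 (-3.82) and Hunk (-3.48) completed the group. Mural cell markers as a list had 2 of 7 called, Mcam and Cspg4 (-2.91, adjusted p = 5.16e-06), and their sum was 223 to 588 CPM with bFGF, lowest in library 4, against 136 to 270 CPM with IL-1b. Of the 3 tested cardiomyocyte markers Tnnt2 was called, at 35.7, 33.4, 35.2 and 7.30 CPM with bFGF, 2.13 to 6.54 CPM with IL-1b and 43.7 to 125 CPM in SS. Fewer cells of a type and less RNA per cell cannot be told apart in such bulk libraries. Among abundant genes the largest falls in mean CPM included Gsn, an actin-severing protein, at 4255, 4441, 3715 and 2678 CPM with bFGF against 1337, 1465, 1005 and 855 CPM with IL-1b (-1.69, SE 0.26, adjusted p = 3.59e-05), and the scaffold Akap12 (-2.65, adjusted p = 8.67e-05).

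Of 20 tested collagen genes 3 were lower with IL-1b and 0 higher (6 and 1 with the block), and the median was -0.28. The share called, 3 of 20, is near the 14.8% of all genes. With all libraries and no block, the share was below 14.8% in the matrix glycoprotein, contractile and TGF beta lists that follow. The TGF beta list moved most with the fit. With the block, 5 of its 29 genes were higher and 9 lower, against 2237 and 2116 of all 16760 genes. Without the number 4 libraries, 6 were higher and 10 lower, against 2015 and 1929 of 16506 genes. With the block, the matrix glycoprotein list had 5 higher and 2 lower, and the contractile list 0 and 3. Col1a1 (0.41, adjusted p = 0.515) and Col3a1 (0.74, adjusted p = 0.146; 0.0186 with the block) were not called, and Fn1, fibronectin, read 5877 to 17718 CPM with IL-1b and 6524 to 18120 CPM with bFGF (-0.13, SE 0.43, adjusted p = 0.905). Col6a3 read 195, 215, 152 and 135 CPM with IL-1b against 527, 495, 464 and 525 CPM with bFGF (-1.53, SE 0.31, adjusted p = 0.001). Col8a2 was called at -3.57 (adjusted p = 0.000898), although bFGF library 4, at 2.24 CPM, lay below IL-1b library 4 at 2.57 CPM. Col11a1 (-1.32, adjusted p = 0.0268) lost its call without any of IL-1b libraries 1 to 3 or bFGF libraries 1 and 2, at adjusted p from 0.0563 to 0.099. Of 33 matrix glycoproteins and crosslinking enzymes 3 were higher: the prolyl hydroxylase P4ha2 (2.08, adjusted p = 0.0029), the collagen crosslinker Lox (1.27, adjusted p = 0.0161; 0.0515 to 0.0534 without bFGF library 2 or 4 or IL-1b library 1) and its relative Loxl1 (0.59, adjusted p = 0.00864; 0.0653 when scaled by total counts only). The proteoglycan Dcn, decorin, read 3675, 3429, 3285 and 2477 CPM with IL-1b against 755, 745, 720 and 880 CPM with bFGF (2.05, SE 0.30, adjusted p = 2.47e-05). Tnfaip6, which modifies hyaluronan, was higher as well (1.41, adjusted p = 0.00125), and the hyaluronan synthase Has3 was lower (-1.78, adjusted p = 0.0174; 0.0573 to 0.0824 without bFGF library 4 or IL-1b library 1 or 3). Of 20 contractile genes 1 was lower with IL-1b, the smooth muscle gene Smtn (-1.30, adjusted p = 4.88e-05). Without the number 4 libraries 12 of the 20 were lower. Tagln, an actin-binding protein of smooth muscle, read 287, 266, 337 and 59.3 CPM with bFGF against 125, 128, 147 and 144 CPM with IL-1b (-0.80, adjusted p = 0.252, and -1.15, adjusted p = 0.000162, without number 4). Of 29 genes of TGF beta signalling, the receptor Tgfbr2 (-0.78, adjusted p = 0.000172) and Id1 (-1.05, adjusted p = 0.0111; 0.0523 without IL-1b library 4) were lower with IL-1b and Skil was higher (0.48, adjusted p = 0.0369). Skil lost its call without any of bFGF libraries 2 to 4 or IL-1b libraries 1 and 2, at adjusted p from 0.0615 to 0.104.

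Genes of glucose use were higher on the IL-1b side. Of 24 tested glycolysis genes 12 were higher and 0 lower (median 0.73; 17 with the block, 7 without IL-1b library 1). The glucose transporter Slc2a1 read 124, 111, 128 and 88.1 CPM against 57.2, 54.6, 59.4 and 56.6 CPM (0.98, SE 0.13, adjusted p = 6.17e-06). Hexokinase 2, Hk2, read 86.5, 91.9, 76.2 and 83.7 CPM with IL-1b, 21.9, 22.7, 24.4 and 29.4 CPM with bFGF and 9.69 to 23.5 CPM in SS (1.78, SE 0.29, adjusted p = 7.22e-05). Pfkfb3, which makes the activator of phosphofructokinase (1.60), the phosphofructokinase subunit Pfkl (1.24) and the lactate transporter Slc16a1 (2.30) were higher without overlap. Pkm, the floxed gene, read 2290, 1953, 2407 and 1321 CPM against 1041, 1009, 1138 and 1113 CPM (0.89, SE 0.23, adjusted p = 0.00744). Gene counts do not separate its PKM1 and PKM2 forms. Ldha, lactate dehydrogenase A, read 626 to 1166 against 405 to 673 CPM and missed the threshold (0.78, adjusted p = 0.0615; 0.0215 with the block). In the TCA cycle list 2 of 24 were called, both higher with IL-1b: pyruvate carboxylase Pcx (1.24, adjusted p = 1.15e-06) and Acod1, which makes itaconate, at 1.79 to 4.67 against 0.0397 to 0.0961 CPM (adjusted p = 1.35e-05). In the cholesterol list 2 of 25 were called, Sc5d and Ebp, with a median of 0.64. With the block 16 of the 25 were higher, a larger share than the 2237 of all 16760 genes. Without the block, the shares called in the TCA cycle and cholesterol lists were near the 7.91% of all genes called higher. Ebp lost its call when scaled by total counts only (adjusted p = 0.0548), without bFGF library 3 (0.0529) and without IL-1b library 4 (0.0613), which left 1.

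Iron, metal and antioxidant genes made another broad group, with 17 of 25 higher with IL-1b and 1 lower (median 1.22). Sod2, the mitochondrial superoxide dismutase, read 597, 630, 382 and 645 CPM against 45.2, 41.0, 43.7 and 36.5 CPM (3.76, SE 0.16, adjusted p = 3.51e-15), and bFGF against SS was 0.02 (adjusted p = 0.971). The metal importers Slc39a14 (3.15, adjusted p = 1.61e-10) and Slc11a2 (2.66, adjusted p = 8.56e-13) and ceruloplasmin, Cp (2.73, adjusted p = 2.44e-10), were higher. Ferritin heavy chain, Fth1, an abundant iron store, read 5899, 4994, 5838 and 4266 CPM against 1374, 1347, 1517 and 1541 CPM (1.86, SE 0.14, adjusted p = 2.85e-10). Slc7a11, the cystine importer, read 53.3, 35.2, 157 and 32.9 CPM against 5.96 to 16.5 CPM (2.64, adjusted p = 0.00386), highest in library 3 of the IL-1b group. The gene of the list that was lower was the oxidase Nox4 (-1.03, adjusted p = 0.0236), which lost its call without bFGF library 1 or 3 or any of IL-1b libraries 1 to 3 (adjusted p from 0.0512 to 0.0804).

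**Figure D4:**
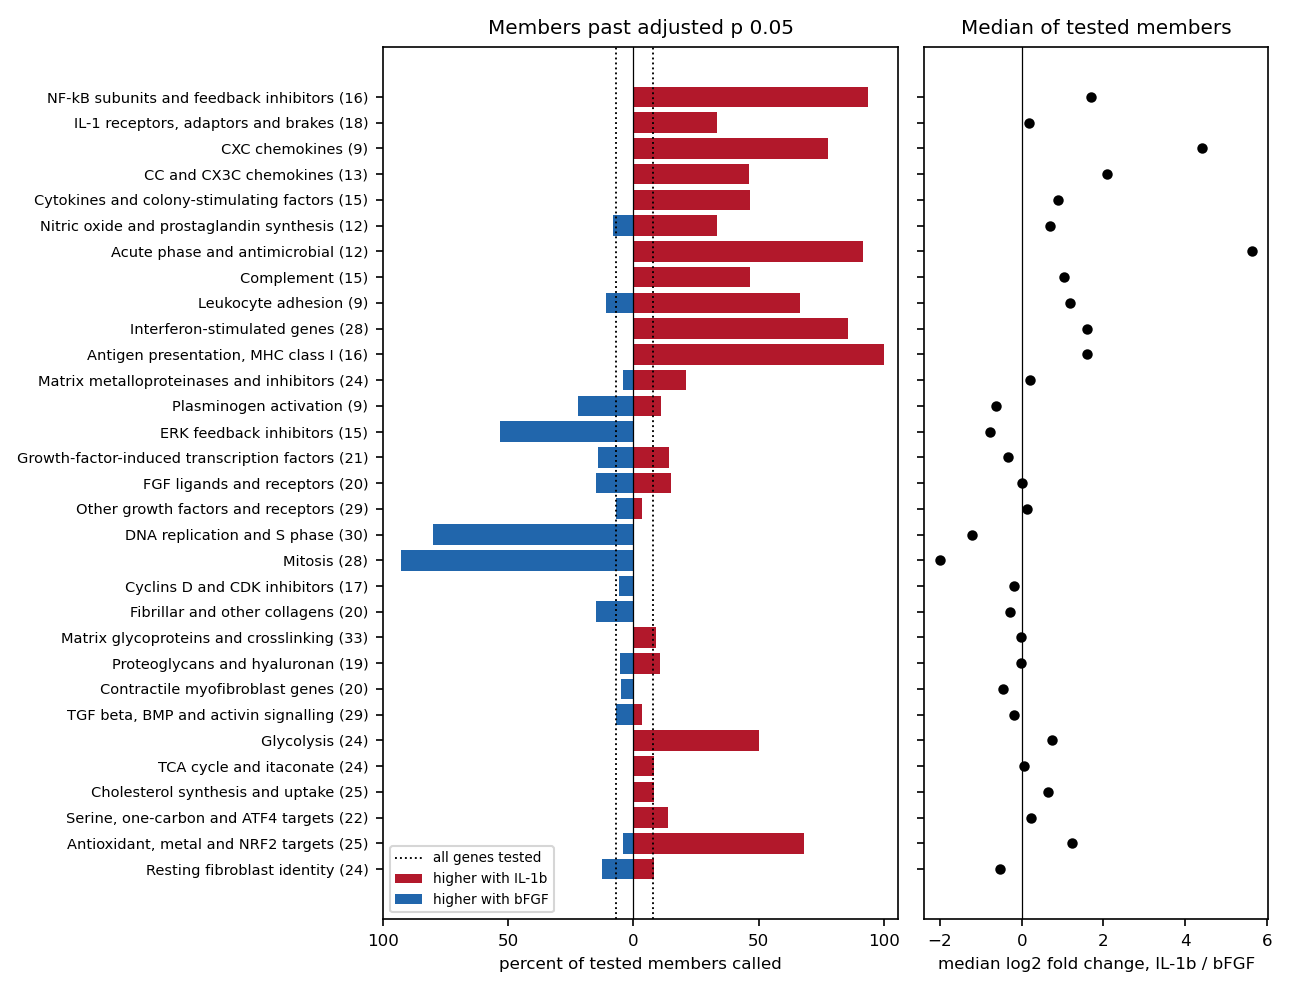
Left, percent of the tested members (number in brackets) of each gene list that were called higher with IL-1b (red, to the right) or with bFGF (blue, to the left) in edgeR, with dotted lines at the shares over all genes tested, 7.91% and 6.91%; right, the median log2 fold change of the tested members. MHC class I presentation reaches 100 percent on the red side, and mitosis with 26 of 28 is the longest blue bar.

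The same comparison in the iCre fibroblasts was made on separate libraries with the same numbers. There 1001 genes (5.97%) were higher and 909 (5.42%) lower, 11.4% together, and 1665 genes were called under both vectors, which is 67.1% of the LacZ calls and 87.2% of the iCre calls, all in the same direction. Over the 16760 genes the log2 fold changes correlated at 0.89 (Pearson) and 0.80 (Spearman), a description across genes, which are not independent replicates. Nos2 differed by 9.09 and 9.53, Spry4 by -2.57 and -2.27, Cdc20 by -2.11 and -1.92, Pkm by 0.89 and 0.84, in LacZ and iCre. The difference between vectors was tested as an interaction in edgeR. It gave 0 genes at an adjusted p of 0.05 and 90 at an unadjusted p of 0.05. The counts were 0 and 99 in DESeq2, and 0 and 196 with the library number as a block. With 16760 genes, chance alone would place more genes under an unadjusted 0.05 than any of these fits did. The interaction p-values thus ran high, and the 0 calls say little about whether the 2 responses differ. Why they ran high was not tested. The smallest-p genes included Ptges2, higher with IL-1b by 2.05 in LacZ and by 1.65 in iCre (difference 0.40, SE 0.13, adjusted p = 1.00). A p above the threshold does not show that the 2 responses are alike.

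**Figure D5:**
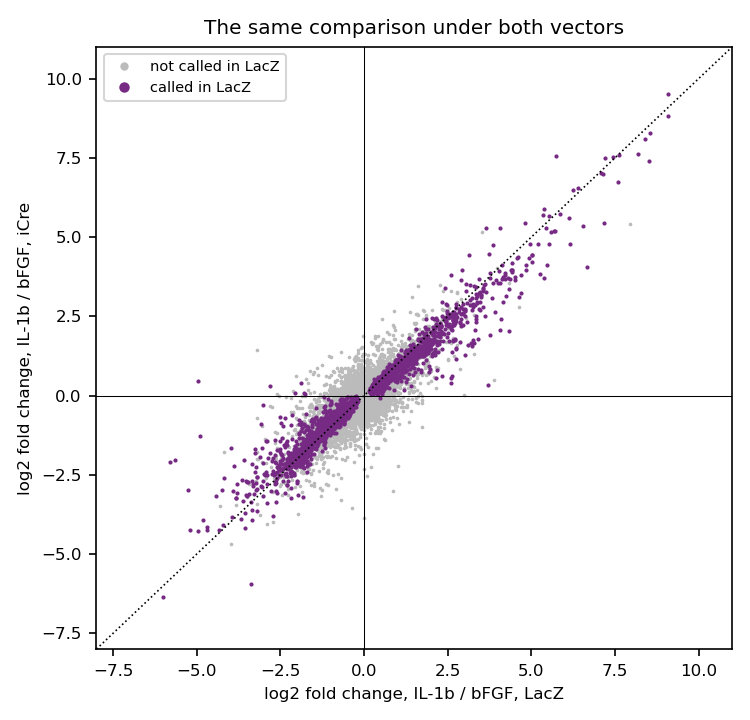
Log2 fold change of IL-1b over bFGF in LacZ (horizontal) and iCre fibroblasts (vertical) for each tested gene, with genes called in LacZ in purple and the line of equality dotted. Of the 2483 purple points 2476 have the same sign under both vectors.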

How the data were processed

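RNA sequencing counts per gene were analysed as deposited by the authors: whole, unnormalised read counts for 55414 Ensembl gene IDs in 32 libraries. FastQC 0.10.1 and HTSeq 0.10.0, with mm10, are named in the submitters' processing notes, and the strand setting is not given in the sources used here. Gene names came from GENCODE M21 on GRCm38, which matched 52081 IDs holding 99.75% of counts.

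After edgeR's low-count filter, 16760 genes were fitted over all 32 libraries (R 4.3.3, edgeR 4.0.16, limma 3.58.1, TMM scaling, robust quasi-likelihood test, 8 group means), with Benjamini-Hochberg adjustment over all genes tested and a threshold of 0.05. CPM are on TMM-scaled library sizes. DESeq2 1.42.0, other scalings and filters, the 8 libraries alone, the library number as a block and leaving out each library were alternatives. Same-numbered libraries deviated together (r from 0.239 to 0.656 in the 4 pairs). Each IL-1b library had its highest r with the bFGF library of its own number. Across numbers r ran from -0.514 to 0.39, the highest for IL-1b library 1 with bFGF library 3. The numbers were taken as pairs, which the fit with 8 group means did not use. No library pair agreed within sampling noise. Scripts were tested on simulated data.

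Named genes were the 12 largest non-overlapping calls each way with mean log2 CPM of at least 1, the 6 largest CPM differences each way, up to 5 members of each list each way, up to 3 abundant uncalled members, markers, and genes of the vector difference; predicted genes and some marginal ones were left out, and 1 gene is not reported here. The members and lists were chosen with earlier results of these data known. Promoter sequences matched by symbol for 11506 of the 16760 tested genes.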

Additional observations from a re-analysis of the deposited data

Results flagged for a closer look

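In 35 of 308 gene and group combinations, 1 of the 4 libraries lay far from the other 3, by a gap that chance gives in about 1 of 20 groups. The libraries were not alike in this: 16 of the 35 were bFGF library 4 and 10 were IL-1b library 3. Each gene is given with that library's value and the range of the other 3 libraries of its group.

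bFGF library 4 was high for Ccl8 (4.64 CPM against 0.542 to 0.711), Gch1 (5.16 CPM against 2.7 to 2.99), Lcn2 (10.5 CPM against 2.21 to 2.62), C3 (248 CPM against 68.5 to 97.5), Alcam (187 CPM against 119 to 127), Mmp3 (996 CPM against 383 to 477), Fosl2 (175 CPM against 96.7 to 102), Sprr2e (0.256 CPM against 0.0 to 0.0397) and Sdc1 (177 CPM against 127 to 129). All of these except Alcam were higher in the IL-1b libraries. The same library was low for Ccnd3 (176 CPM against 252 to 267), Mcam (13.4 CPM against 107 to 112), Mycn (2.91 CPM against 9.12 to 10.2), Map2 (10.1 CPM against 74.3 to 76.5), Colec11 (8.23 CPM against 45.0 to 48.2), Etv1 (96.9 CPM against 118 to 119) and Tnnt2 (7.3 CPM against 33.4 to 35.7), all genes called higher with bFGF.

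IL-1b library 3 was high for Mcm7 (27.5 CPM against 17.9 to 19.1), Cdk1 (16.4 CPM against 8.46 to 9.77), Cdc20 (15.0 CPM against 4.23 to 5.76), Mycn (1.09 CPM against 0.554 to 0.599), Akap12 (343 CPM against 226 to 244), Sprr2e (40.5 CPM against 2.53 to 5.57), Trdc (39.5 CPM against 3.55 to 7.95) and Slc7a11 (157 CPM against 32.9 to 53.3). It was low for Steap4 (471 CPM against 1110 to 1190) and Vnn3 (7.77 CPM against 12.8 to 13.6). IL-1b library 4 was low for Cxcl1 (565 CPM against 1200 to 1290) and Id1 (19.3 CPM against 31.2 to 32.2) and high for Col8a2 (2.57 CPM against 0.879 to 1.06).

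Single values stood apart in other bFGF libraries. Library 1 was high for Saa3 (2.7 CPM against 2.29 to 2.36), library 2 was high for Icam1 (146 CPM against 93.6 to 96.4) and for Ccl19 (0.0417 CPM, a single count, against 0), and library 3 was high for Bst1 (3.33 CPM against 1.25 to 1.58) and low for Tapbp (145 CPM against 186 to 187) and Tap2 (46.4 CPM against 53.1 to 54.1). What sets these libraries apart was not tested.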

How the results depend on the processing

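Of 154 genes named or considered, 137 were called and 122 of them remained called in all 17 alternative settings. Of the called genes 0 changed sign, and 4 that were not called did in some setting (Traf1, Mmp2, Cdkn1a and Fn1), as Traf1 at 0.17 without bFGF library 4. With the library number as a block, 4353 genes were called (2237 higher with IL-1b, 2116 lower), and 5 named genes gained a call while 0 lost one. The block gave 5418 genes for IL-1b against SS (2810 and 2608), 2048 for bFGF against SS (1177 and 871) and 3687 in iCre (1872 and 1815). For the 8 libraries alone with the block the count was 3834, of which 1898 were lower. Without the number 4 libraries it was 3944 (2015 and 1929). DESeq2 called 881 genes for bFGF against SS (579 and 302). Leaving out 1 library at a time gave 1038 to 1357 genes higher and 756 to 1198 lower, the lowest without IL-1b library 1. The cause of these shifts was not tested. Groups of 4 limit the precision, and low genes such as Kcnj5 and Csf3 rest on few counts.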

Other observations

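A few genes with very low counts in the bFGF libraries are given as ratios of summed counts with an exact 95% interval, which covers counting error only. Vnn3, a pantetheinase, had 1200 counts with IL-1b and 3 with bFGF, a ratio of 397 (136 to 1930). Slc36a2, an amino acid transporter, had 990 and 3, a ratio of 328 (112 to 1590). Ccl19, a homing chemokine, had 269 and 1, a ratio of 267 (47.5 to 10600).

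Of 24 genes used as labels of resting fibroblasts 2 were higher with IL-1b and 3 lower in edgeR, with a median of -0.52. Over all genes 7.91% were higher and 6.91% lower. With the library number as a block 3 of the 24 were higher and 12 lower, against 2237 and 2116 of all 16760 genes. The higher ones without the block were Dcn and Ly6a, the gene of Sca-1 (2.15, adjusted p = 6.41e-05). The lower ones included Gsn, given above, and Thy1 (adjusted p = 0.0377 in edgeR). Thy1 lost its call in several settings, as without bFGF library 4 (adjusted p = 0.186). Vegfa, an angiogenic factor, was higher with IL-1b (1.19, adjusted p = 0.000194). These genes were picked from list members after their values were seen.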
